A study of Mus musculus with 10 samples.

Results

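Mitosis and spindle genes are the genes that carry a cell from the end of G2 through chromosome segregation to cytokinesis. A list of 40 of them was matched by symbol to the 51456 gene IDs of the deposited table, and all 40 were found. Their RNA was compared between sorted mouse bone marrow cells of 2 groups with 5 libraries each. The LSC-labelled libraries are leukemia stem cells, by the labels sorted from lineage-negative (Lin-) marrow as Sca-1-, c-Kit+ cells that were also CD16/32+ and CD34+, from mice with acute myeloid leukemia (AML) driven by the fusion gene MLL-AF9. The HSC-labelled libraries are hematopoietic stem cells, by the labels sorted as CD48-CD150+LSK cells (lineage-negative, Sca-1-positive, c-Kit-positive) from wild-type C57BL/6J mice. The genotype label reads Wild-type for both groups. The sources used here give no ages or treatments and do not say how the fusion gene was introduced. The leukemia and the sort gate differ together between the groups, so their parts in any difference cannot be told apart. The labels do not say whether each library came from a separate mouse or culture, so a p-value here measures the spread between these libraries, which may be technical. Values are FPKM, fragment counts scaled by transcript length and library size, and are always listed in the order of replicates 1 to 5.

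Entry into mitosis is driven by the kinase Cdk1 bound to A-type and B-type cyclins, after Cdc25 phosphatases have removed inhibitory phosphates. Kinetochores then bind spindle microtubules, and the spindle checkpoint holds back the anaphase-promoting complex (APC/C) until every chromosome is attached. The APC/C with Cdc20 destroys securin and cyclin B, which frees separase and starts anaphase. Most of these genes are transcribed late in the cell cycle, under the MuvB complexes with B-Myb and Foxm1, through CHR promoter elements (TTTGAA or close variants) and CCAAT boxes bound by NF-Y. Adult hematopoietic stem cells are known mostly as quiescent cells, and granulocyte-monocyte progenitors, which share the sort gate of the LSC-labelled cells, as cycling cells.

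The libraries went against their labels in several marker genes. Ly6a, which encodes Sca-1, averaged 74.2 ± 24.8 FPKM in LSC-labelled and 0.920 ± 0.917 FPKM in HSC-labelled libraries (SD, n = 5 each), although the first were sorted as Sca-1-negative. Slamf1, which encodes CD150, averaged 2.85 ± 0.319 FPKM in LSC-labelled and 0.494 ± 0.270 FPKM in HSC-labelled libraries. Hoxa9, a target of MLL fusions, averaged 7.06 ± 0.945 FPKM in LSC-labelled and 57.0 ± 7.58 FPKM in HSC-labelled libraries, and its neighbour Hoxa10 averaged 0.954 ± 0.128 FPKM in LSC-labelled and 32.7 ± 7.17 FPKM in HSC-labelled libraries. The other genes of the LSC gate were added after their values were seen. Of these, Cd34 averaged 91.3 ± 3.598 FPKM in LSC-labelled and 27.7 ± 13.3 FPKM in HSC-labelled libraries, as that gate says. Kit averaged 61.6 ± 2.99 FPKM in LSC-labelled and 21.5 ± 8.36 FPKM in HSC-labelled libraries. Both gates are c-Kit-positive, so they do not call for this difference. Fcgr3, which encodes CD16, went against the LSC gate, at 197 ± 20.7 FPKM in LSC-labelled and 371 ± 117 FPKM in HSC-labelled libraries. Every direction below is therefore a direction between libraries as labelled. An exchange of the 2 groups' columns in the deposited table was not tested, and it would turn every direction round. Column sums of FPKM ran from 478303 to 495167 in LSC-labelled and from 472651 to 499850 in HSC-labelled libraries. HSC-labelled replicate 1 stood apart in the mitosis genes, and results are given with and without it below. Total read counts were not analysed here and the depth is not known.

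Many markers of other cells differed between the groups, but the sums of some lists overlapped. A marker was tested if it reached 1 FPKM in at least 5 libraries. Of all tested genes, 27.2% were called higher and 13.8% lower. Of 6 megakaryocyte and platelet markers, 5 were tested and 5 were higher in LSC-labelled libraries. The summed level of the 6 was 745 to 1212 FPKM there, against 16.6 to 255 FPKM in HSC-labelled libraries. Basophil, mast cell and eosinophil markers were higher in 5 of 6, with sums of 1101 to 2416 FPKM in LSC-labelled and 84.9 to 320.4 FPKM in HSC-labelled libraries. Neutrophil markers were higher in 5 of 6, with sums of 1666 to 19189 FPKM in LSC-labelled and 576 to 3173 FPKM in HSC-labelled libraries. Erythroid markers were higher in 5 of 8, with sums of 739 to 1595 FPKM in LSC-labelled and 65.4 to 1228 FPKM in HSC-labelled libraries. Granulocyte-monocyte progenitor markers were higher in 1 of 6, with sums of 13951 to 21396 FPKM in LSC-labelled and 11813 to 28391 FPKM in HSC-labelled libraries. Stem cell markers were higher in 5 and lower in 1 of 7 tested (8 listed), with sums of 87.0 to 146 FPKM in LSC-labelled and 17.9 to 32.8 FPKM in HSC-labelled libraries. MLL fusion targets were lower in 6 of 7, with sums of 47.2 to 53.5 FPKM in LSC-labelled and 172 to 332 FPKM in HSC-labelled libraries. B cells gave 3 higher of 4 tested (6 listed), and T and NK cells 1 higher of 1 tested (6 listed). Dendritic cells gave 3 higher of 5, endothelium and stroma 5 higher of 6 tested (7 listed), and monocytes 4 lower of 6. No marker was at 0 in all libraries of a group. The part of these cells in the results below was not tested, and in bulk samples fewer cells of a type and less RNA per cell cannot be told apart.

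The promoters of the genes on which the results turn are shown first, because CHR elements and CCAAT boxes are known to drive this class of genes late in the cell cycle. Each line gives the 120 bases just before the annotated start in the sense of the gene, from RefSeq on GRCm38.p6 (starts in GENCODE can differ), with matches to the CHR element TTTGAA, to its variant TTTAAA and to the CCAAT box in capitals (ATTGG is CCAAT on the other strand).
Cdk1, chr10:69352913-69353032, minus strand: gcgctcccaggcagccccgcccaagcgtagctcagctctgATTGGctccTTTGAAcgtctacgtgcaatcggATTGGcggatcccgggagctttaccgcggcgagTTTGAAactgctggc
Ccnb1, chr13:100786487-100786606, minus strand: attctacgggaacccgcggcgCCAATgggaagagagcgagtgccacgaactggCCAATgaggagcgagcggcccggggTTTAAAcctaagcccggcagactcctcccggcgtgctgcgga
Plk1, chr7:122159315-122159434, plus strand: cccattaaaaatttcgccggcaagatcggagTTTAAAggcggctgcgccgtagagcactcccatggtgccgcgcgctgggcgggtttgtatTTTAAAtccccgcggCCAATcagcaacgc
Cdc20, chr4:118437344-118437463, minus strand: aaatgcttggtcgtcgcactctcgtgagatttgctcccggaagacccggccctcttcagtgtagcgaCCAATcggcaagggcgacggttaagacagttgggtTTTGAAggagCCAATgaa
Cenpa, chr5:30666766-30666885, plus strand: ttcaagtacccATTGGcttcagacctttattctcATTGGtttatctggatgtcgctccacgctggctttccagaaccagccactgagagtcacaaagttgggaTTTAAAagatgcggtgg
Mad2l1, chr6:66535101-66535220, plus strand: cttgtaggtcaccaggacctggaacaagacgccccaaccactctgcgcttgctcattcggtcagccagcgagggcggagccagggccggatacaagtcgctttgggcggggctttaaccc
Ccnb2, chr9:70421555-70421674, minus strand: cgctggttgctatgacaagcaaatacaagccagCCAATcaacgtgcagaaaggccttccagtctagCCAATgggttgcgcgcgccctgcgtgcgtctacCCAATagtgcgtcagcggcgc
Kif23, chr9:61946800-61946919, minus strand: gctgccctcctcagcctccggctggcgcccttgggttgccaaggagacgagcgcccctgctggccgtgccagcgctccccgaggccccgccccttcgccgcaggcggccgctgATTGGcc
The first 6 are genes called higher in LSC-labelled libraries, where the seventh such gene is Ccna2, which had no entry among the sequences used. The last 2, Ccnb2 and Kif23, are genes called lower under other scalings. Ndc80, also called lower there, had TTTGAA on the other strand from +30 and TTTAAA from +23, and none of the motifs in the bases that would be shown. Counting the base before the start as -1, Cdk1 carried TTTGAA at -71 and at -15, and Cdc20 at -18, next to a CCAAT box at -8. Plk1, Cenpa, Ccnb2 and Kif23 carried TTTGAA past the start, from +31, +17, +5 and +3, outside the bases shown. Ccnb1 had TTTAAA at -42 behind CCAAT boxes at -99 and -67, and no TTTGAA in the window searched. Mad2l1 had none of the 3 motifs in that window, which says only that these letters are not there. The GENCODE start of Mad2l1, at chr6:66535390, lies past the end of its window, so the bases next to that start were not searched.

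Promoter windows of 250 bases before to 50 bases after the start were given for 33 of the 40 genes. TTTGAA or its reverse TTCAAA stood in 23 of 33 windows (69.7%), against 18.1% of all 27025 windows of the same length. Within 50 bases of the start it stood in 21 of 33 (63.6%), against 4.92% of all windows. CCAAT or ATTGG stood in 25 of 33 (75.8%), against 37.9% of all windows, and TTTGAA together with CCAAT in 20 of 33 (60.6%), against 7.12%. TTTAAA, which reads the same on both strands, stood in 9 of 33 (27.3%), against 13.2%. In these windows no match of 1 motif overlapped a match of another, although a pair of CCAAT matches on opposite strands of Ube2c shared bases, and a match is a description and not a bound site. Genes with TTTGAA had a median log2 fold change of 0.05 (n = 23, 4 called higher) and genes without it 0.01 (n = 10, 2 called higher), given as a description.

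The mitosis genes were expressed at close levels in the 2 groups. All 40 passed the filter of at least 1 FPKM in at least 5 libraries, and their means over the 10 libraries ran from 6.04 FPKM for Foxm1 to 154 FPKM for Ccnb2. In LSC-labelled libraries 7 genes were called higher than in HSC-labelled libraries, 0 were called lower and 33 were not called (limma on log2(FPKM + 1), Benjamini-Hochberg adjusted p under 0.05). At an unadjusted p under 0.05 the counts were 11 higher and 0 lower. Of all 13431 genes tested, 27.2% were called higher and 13.8% lower. The median log2 fold change was 0.06 over the 40 genes and 0.11 over all tested genes, and 27 of the 40 values were positive. Every single value lay between -0.24 for Kif23 and 0.39 for Cenpa, and the 95% intervals of all 40 genes together spanned folds of 0.699 to 1.61 on the log2(FPKM + 1) scale. The values of the groups did not overlap for 1 gene, Mad2l1, against 20.0% of all tested genes that were higher and 9.8% that were lower in this way.

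**Figure D1:**
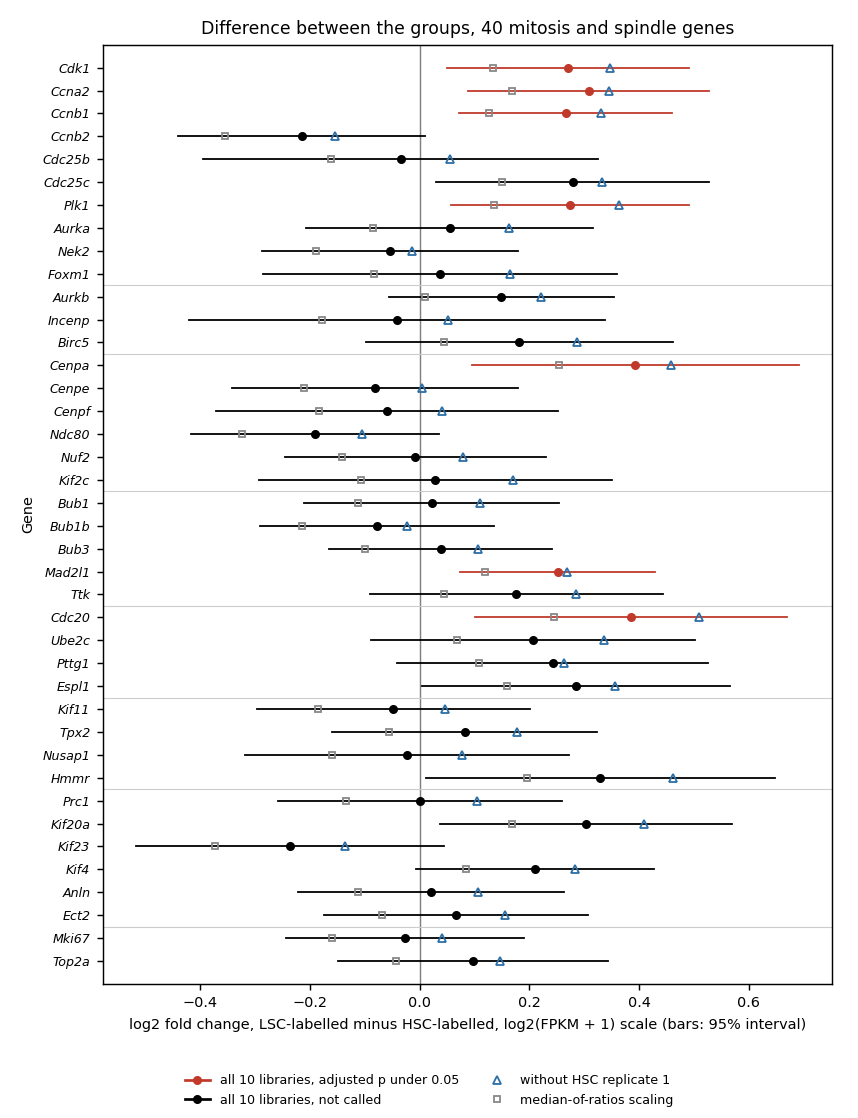
Log2 fold change of each of the 40 genes, LSC-labelled minus HSC-labelled, on the log2(FPKM + 1) scale. Circles with 95% intervals are the fit on all 10 libraries (red: adjusted p under 0.05), triangles the fit without HSC-labelled replicate 1 and squares the fit after median-of-ratios scaling; the 7 red genes lie between 0.25 and 0.39, and the squares lie left of the circles.

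Among the genes of mitotic entry, 4 of 10 were called higher in LSC-labelled libraries and 0 lower, with a median log2 fold change of 0.16. Of all tested genes, 27.2% were called higher and 13.8% lower, with a median of 0.11. Cdk1, the kinase that drives mitosis, had 43.5, 48.9, 44.9, 48.6 and 44.7 FPKM in the LSC-labelled libraries, against 47.2, 40.5, 32.8, 36.0 and 35.2 FPKM in the HSC-labelled libraries. HSC-labelled replicate 1 lay within the LSC-labelled range and the other 4 HSC-labelled libraries below it (log2 fold change 0.27, SE 0.10, adjusted p = 0.0495). Ccnb1, the main B-type cyclin partner of Cdk1, had 114, 122, 109.9, 114 and 110.1 FPKM in the LSC-labelled libraries, against 113, 88.9, 84.2, 91.5 and 97.7 FPKM in the HSC-labelled libraries. Again only HSC-labelled replicate 1 reached the LSC-labelled values (log2 fold change 0.27, SE 0.09, adjusted p = 0.0315). The 4 pseudogenes that are near-identical to Ccnb1 did not exceed 2.42 FPKM in any library.

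Ccna2, the cyclin of S phase and early mitosis, had 78.9, 94.0, 83.3, 92.6 and 85.5 FPKM in the LSC-labelled libraries, against 77.6, 82.9, 64.1, 65.5 and 61.4 FPKM in the HSC-labelled libraries. HSC-labelled replicate 2 was the highest of its group and lay above the lowest LSC-labelled library (log2 fold change 0.31, SE 0.10, adjusted p = 0.0285). This gene, at chr3:36564865-36572150 on the minus strand of GRCm38, shares 510 exonic bases with Exosc9 on the opposite strand, and whether the library kept strand is not given. Plk1, a kinase that activates Cdk1 and builds the spindle poles, had 83.9, 83.3, 85.1, 77.6 and 81.7 FPKM in the LSC-labelled libraries, against 87.3, 66.5, 61.8, 63.9 and 62.8 FPKM in the HSC-labelled libraries. Here HSC-labelled replicate 1 was the highest of all 10 libraries and the other 4 HSC-labelled libraries lay together below the LSC-labelled ones (log2 fold change 0.27, SE 0.10, adjusted p = 0.0447).

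The other B-type cyclin stood on the other side of 0. Ccnb2, the most abundant of the 40 genes by its mean over the 10 libraries, had 133, 161, 148, 138 and 133 FPKM in the LSC-labelled libraries, against 196, 174, 141, 149 and 170.5 FPKM in the HSC-labelled libraries. The groups overlapped, with the 3 highest values in HSC-labelled libraries, and the gene was not called (log2 fold change -0.22, SE 0.10, adjusted p = 0.116). The ratio of Ccnb1 to Ccnb2, which does not change when a library is multiplied by a factor, was 0.803 ± 0.0490 in LSC-labelled and 0.574 ± 0.0384 in HSC-labelled libraries (SD, n = 5 each). It ran from 0.743 to 0.854 in LSC-labelled and from 0.511 to 0.612 in HSC-labelled libraries, with no overlap. This ratio was chosen after its values were seen and is given as a description with no test.

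The other 5 genes of mitotic entry were not called. Aurka, the spindle pole kinase, averaged 79.2 ± 3.68 FPKM in LSC-labelled and 77.2 ± 15.6 FPKM in HSC-labelled libraries, and Nek2, a centrosome kinase, 21.4 ± 1.66 FPKM in LSC-labelled and 22.4 ± 3.18 FPKM in HSC-labelled libraries. Cdc25c, a phosphatase that activates Cdk1, averaged 13.5 ± 1.60 FPKM in LSC-labelled and 10.997 ± 1.61 FPKM in HSC-labelled libraries (adjusted p = 0.0707). Its relative Cdc25b averaged 9.71 ± 2.19 FPKM in LSC-labelled and 9.99 ± 2.14 FPKM in HSC-labelled libraries, with LSC-labelled replicate 1 alone at 13.6 FPKM in its group. Foxm1, the transcription factor of the late cell cycle, was the least abundant member at 6.07 ± 0.698 FPKM in LSC-labelled and 6.01 ± 1.67 FPKM in HSC-labelled libraries.

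The chromosomal passenger complex carries Aurora B kinase to centromeres and later to the central spindle. By limma 0 of its 3 genes were called in either direction, against 27.2% of all tested genes higher and 13.8% lower. Of the 3, 0 had an unadjusted p under 0.05. Aurkb, the kinase, had 123, 125, 119, 124 and 115 FPKM in the LSC-labelled libraries, against 134, 104, 108, 93.8 and 109.7 FPKM in the HSC-labelled libraries. HSC-labelled replicate 1 lay above all LSC-labelled libraries and the other 4 below them (log2 fold change 0.15, SE 0.09, adjusted p = 0.226). Birc5, which encodes survivin and docks the complex, had 54.2, 69.2, 64.7, 59.5 and 59.3 FPKM in the LSC-labelled libraries, against 72.5, 54.7, 44.7, 46.9 and 54.3 FPKM in the HSC-labelled libraries. Its groups overlapped (log2 fold change 0.18, SE 0.13, adjusted p = 0.279). Incenp, the scaffold, averaged 45.5 ± 8.67 FPKM in LSC-labelled and 47.0 ± 10.4 FPKM in HSC-labelled libraries and was uneven within both groups, with LSC-labelled replicates 2 and 4 at 36.2 and 36.3 FPKM and the other 3 LSC-labelled libraries at 49.0 to 54.9 FPKM.

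Of the 6 centromere and kinetochore genes, 1 was called higher in LSC-labelled libraries and 0 lower (all tested genes: 27.2% higher and 13.8% lower). Of the 6 values, 4 were negative. Cenpa, the histone H3 variant that marks centromeres, had 58.5, 82.1, 75.4, 68.0 and 65.4 FPKM in the LSC-labelled libraries, against 63.3, 63.5, 41.8, 45.9 and 52.4 FPKM in the HSC-labelled libraries. Its groups overlapped, with HSC-labelled replicates 1 and 2 inside the LSC-labelled range (log2 fold change 0.39, SE 0.14, adjusted p = 0.0376). Kif2c, the microtubule-depolymerizing kinesin of centromeres, had 27.6, 30.5, 29.5, 30.6 and 25.1 FPKM in the LSC-labelled libraries, against 41.9, 25.3, 22.3, 26.4 and 27.4 FPKM in the HSC-labelled libraries. HSC-labelled replicate 1 was the highest of all libraries and the other values overlapped (log2 fold change 0.03, SE 0.15, adjusted p = 0.894). Ndc80, the microtubule-binding subunit of the outer kinetochore, averaged 15.5 ± 0.762 FPKM in LSC-labelled and 17.9 ± 2.87 FPKM in HSC-labelled libraries and its partner Nuf2 19.1 ± 1.49 FPKM in LSC-labelled and 19.3 ± 3.14 FPKM in HSC-labelled libraries. Cenpe, a kinetochore kinesin, averaged 11.04 ± 1.48 FPKM in LSC-labelled and 11.8 ± 1.89 FPKM in HSC-labelled libraries, and Cenpf, a large kinetochore protein, 7.90 ± 0.770 FPKM in LSC-labelled and 8.42 ± 2.02 FPKM in HSC-labelled libraries. None of these 4 was called.

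The spindle checkpoint gave the 1 gene without overlap between the groups, against 20.0% of all tested genes higher and 9.8% lower in this way. Mad2l1, which encodes the Mad2 protein that binds and holds Cdc20, had 17.3, 20.5, 18.5, 19.2 and 17.2 FPKM in the LSC-labelled libraries, against 16.2, 15.6, 16.0, 13.6 and 15.5 FPKM in the HSC-labelled libraries. Every LSC-labelled library lay above every HSC-labelled library, although the nearest values of 17.2 and 16.2 FPKM were close (log2 fold change 0.25, SE 0.08, adjusted p = 0.0274). Over 454 bases Mad2l1 is 95.4% identical to the processed pseudogene Gm42430, which reached up to 1.75 FPKM. Sharing of reads between Mad2l1 and this pseudogene was not tested. The other 4 checkpoint genes were not called (all tested genes: 27.2% called higher and 13.8% lower). Bub3, the partner of Bub1 and BubR1, had 75.1, 78.6, 71.5, 74.0 and 73.7 FPKM in the LSC-labelled libraries, against 87.4, 72.7, 61.1, 69.7 and 73.9 FPKM in the HSC-labelled libraries. Bub1b, which encodes BubR1, had 48.2, 43.0, 45.5, 42.9 and 47.4 FPKM in the LSC-labelled libraries, against 55.8, 40.6, 46.0, 44.6 and 54.0 FPKM in the HSC-labelled libraries. Both genes overlapped widely between the groups (adjusted p = 0.766 for Bub3 and adjusted p = 0.556 for Bub1b). The checkpoint kinases Bub1 and Ttk (Mps1) averaged 22.3 ± 1.45 FPKM in LSC-labelled and 22.1 ± 3.604 FPKM in HSC-labelled libraries for Bub1 and 17.7 ± 1.41 FPKM in LSC-labelled and 15.7 ± 3.22 FPKM in HSC-labelled libraries for Ttk.

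All 4 genes of APC/C action and chromatid separation had positive values, with a median of 0.26, and 1 was called. Of all tested genes, 27.2% were called higher and 13.8% lower, with a median of 0.11. Cdc20, the activator of the APC/C in metaphase, had 157, 169, 174, 151 and 169 FPKM in the LSC-labelled libraries, against 177, 121, 103, 115 and 120.3 FPKM in the HSC-labelled libraries. HSC-labelled replicate 1 was the highest of all 10 libraries, and the other 4 HSC-labelled libraries lay below every LSC-labelled one (log2 fold change 0.39, SE 0.13, adjusted p = 0.0336). Ube2c, the ubiquitin-conjugating enzyme of the APC/C, had 115, 119, 112, 116 and 110.3 FPKM in the LSC-labelled libraries, against 142, 102, 80.0, 93.5 and 87.2 FPKM in the HSC-labelled libraries. HSC-labelled replicate 1 was again the highest of all and the other 4 the lowest, without a call (log2 fold change 0.21, SE 0.13, adjusted p = 0.244). Espl1, which encodes separase, averaged 10.5 ± 0.718 FPKM in LSC-labelled and 8.54 ± 1.77 FPKM in HSC-labelled libraries (adjusted p = 0.0973), and its inhibitor Pttg1, securin, 22.9 ± 2.001 FPKM in LSC-labelled and 19.4 ± 3.67 FPKM in HSC-labelled libraries (adjusted p = 0.157).

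Among the 12 genes of spindle assembly, the central spindle, cytokinesis and mitotic chromosomes, limma called 0 (all tested genes: 27.2% higher and 13.8% lower). Of the 12 values, 8 were positive. At an unadjusted p under 0.05 there were 2, Hmmr and Kif20a, both higher. Kif11, the kinesin that pushes spindle poles apart, had 36.3, 43.9, 38.0, 44.3 and 38.5 FPKM in the LSC-labelled libraries, against 54.0, 37.0, 37.2, 39.1 and 42.0 FPKM in the HSC-labelled libraries. Tpx2, which activates Aurora A on the spindle, had 37.0, 43.0, 38.1, 43.4 and 39.4 FPKM in the LSC-labelled libraries, against 49.6, 35.3, 33.2, 37.7 and 35.2 FPKM in the HSC-labelled libraries. In both genes HSC-labelled replicate 1 was the highest library and the remaining values overlapped (adjusted p = 0.765 for Kif11 and adjusted p = 0.582 for Tpx2). Hmmr, a spindle pole protein, averaged 26.0 ± 2.46 FPKM in LSC-labelled and 20.8 ± 5.31 FPKM in HSC-labelled libraries (adjusted p = 0.0904), and Nusap1, which bundles microtubules near chromosomes, 32.5 ± 4.46 FPKM in LSC-labelled and 33.3 ± 6.38 FPKM in HSC-labelled libraries.

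In the central spindle, Kif23, a subunit of centralspindlin, had 24.9, 26.8, 24.5, 28.8 and 26.5 FPKM in the LSC-labelled libraries, against 41.4, 29.6, 24.2, 34.4 and 28.3 FPKM in the HSC-labelled libraries. The groups overlapped, with 4 LSC-labelled libraries below every HSC-labelled one but replicate 3 (log2 fold change -0.24, SE 0.13, adjusted p = 0.163). Prc1, which bundles antiparallel microtubules in anaphase, had 28.0, 32.0, 26.4, 28.6 and 26.6 FPKM in the LSC-labelled libraries, against 38.0, 26.4, 23.7, 27.3 and 27.6 FPKM in the HSC-labelled libraries. Its log2 fold change was 0.00 (adjusted p = 0.996). Kif20a, the kinesin that brings the passenger complex to the midzone, averaged 28.6 ± 2.11 FPKM in LSC-labelled and 23.2 ± 4.66 FPKM in HSC-labelled libraries (adjusted p = 0.0667), with 1271 exonic bases shared with Cdc23 on the opposite strand. Its ratio to Kif23 was 1.09 ± 0.0545 in LSC-labelled and 0.739 ± 0.0558 in HSC-labelled libraries, again without overlap and again chosen after the values were seen. Of 8 ratios of partner genes computed, 3 did not overlap between the groups. The third was Kif23 to Prc1 at 0.931 ± 0.0721 in LSC-labelled and 1.104 ± 0.0970 in HSC-labelled libraries. Its nearest values were close, at 1.004 in LSC-labelled and 1.021 in HSC-labelled libraries, and Kif20a to Kif23 shares a gene with it. The other 5 ratios overlapped, among them Ccnb1 to Cdk1 at 2.47 ± 0.0961 in LSC-labelled and 2.50 ± 0.214 in HSC-labelled libraries. No share over ratios of other genes was computed, so the count is a description. Of single tested genes, 20.0% were higher without overlap and 9.8% lower. Kif4, Anln and Ect2, a chromosome-bound kinesin, a scaffold of the contractile ring and an exchange factor of cytokinesis, averaged 10.1 ± 0.628 FPKM in LSC-labelled and 8.62 ± 1.26 FPKM in HSC-labelled libraries for Kif4, 18.9 ± 1.64 FPKM in LSC-labelled and 18.7 ± 3.05 FPKM in HSC-labelled libraries for Anln and 22.8 ± 1.63 FPKM in LSC-labelled and 21.9 ± 3.71 FPKM in HSC-labelled libraries for Ect2.

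The pair of mitotic chromosome genes, which also serve as markers of proliferation, did not separate the groups. Top2a, the topoisomerase that untangles sister chromatids, had 96.1, 119.9, 98.2, 119 and 98.3 FPKM in the LSC-labelled libraries, against 114, 78.9, 101, 106 and 97.3 FPKM in the HSC-labelled libraries. Mki67, which coats mitotic chromosomes and is the Ki-67 antigen, had 18.8, 21.1, 16.9, 20.4 and 18.8 FPKM in the LSC-labelled libraries, against 23.6, 19.3, 18.6, 19.5 and 17.0 FPKM in the HSC-labelled libraries. The values interleaved for both (log2 fold change 0.10, SE 0.11, adjusted p = 0.52 for Top2a and log2 fold change -0.03, SE 0.10, adjusted p = 0.853 for Mki67). The 95% interval of Mki67 was a fold of 0.845 to 1.14, and a p that misses the threshold does not show equal levels.

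**Figure D2:**
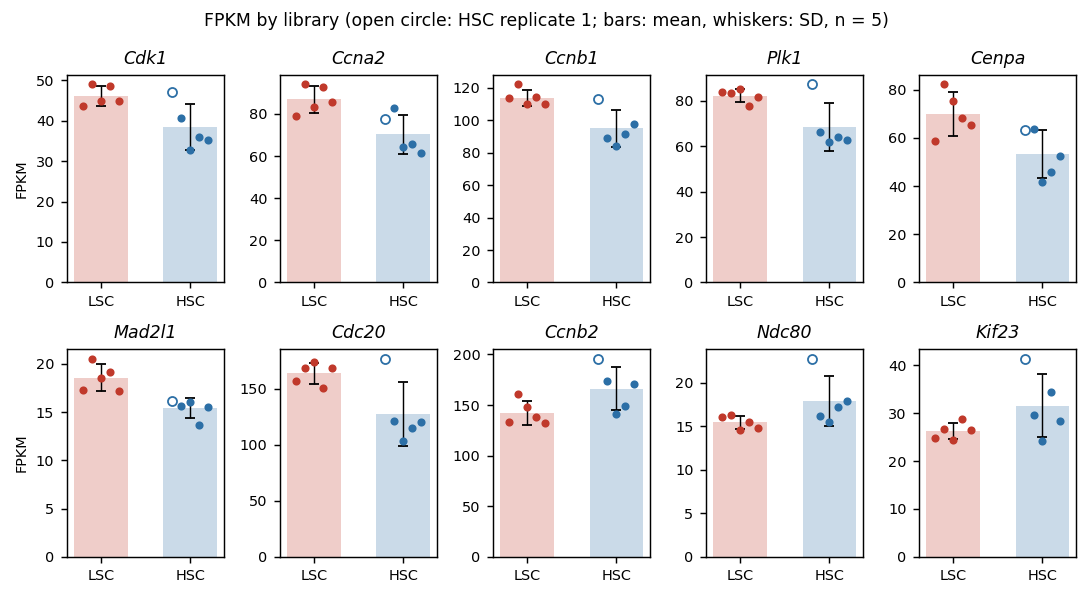
FPKM in every library for the 7 genes called higher in LSC-labelled libraries and for Ccnb2, Ndc80 and Kif23, with LSC-labelled libraries left and HSC-labelled libraries right. Bars are means, whiskers SDs over n = 5 libraries and points single libraries, and the open circle is HSC-labelled replicate 1, which was the highest HSC-labelled library in all panels but Ccna2 and Cenpa.

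A single library stood apart in these genes. HSC-labelled replicate 1 was the highest of the 5 HSC-labelled libraries in 37 of the 40 genes (92.5%), the exceptions being Ccna2, Cenpa and Pttg1, against 24.2% of all tested genes. It was the highest of all 10 libraries in 29 of 40 (72.5%), against 12.5% of all tested genes. Averaged over the 40 genes, its log2(FPKM + 1) lay 0.29 above the mean of the 10 libraries, while all tested genes averaged -0.01 there. The other 4 HSC-labelled libraries, replicates 2 to 5, lay at -0.06, -0.25, -0.15 and -0.07 for the 40 genes and between -0.17 and 0.02 for all tested genes. The LSC-labelled libraries lay at 0.00, 0.13, 0.03, 0.07 and 0.01 for the 40 genes, inside the range of the HSC-labelled ones. The SD over replicates was larger in HSC-labelled than in LSC-labelled libraries for 39 of 40 genes (97.5%), against 73.1% of all tested genes, with medians of 0.107 in LSC-labelled and 0.221 in HSC-labelled libraries on the log2 scale. Over all tested genes these medians were 0.155 in LSC-labelled and 0.232 in HSC-labelled libraries.

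**Figure D3:**
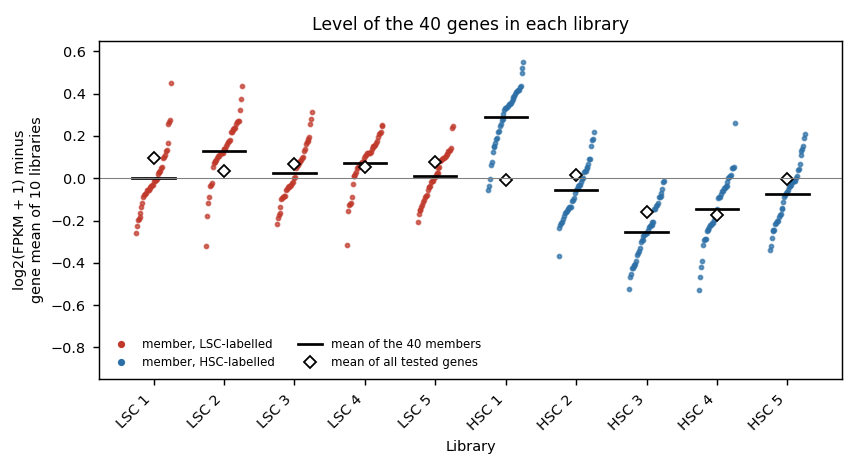
Level of the 40 genes in each library as log2(FPKM + 1) minus the gene's mean over the 10 libraries, with LSC-labelled libraries left. Points are genes, lines the mean of the 40 genes and diamonds the mean of all tested genes; the line stands at 0.29 in HSC-labelled replicate 1 while its diamond stands at -0.01.

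The same library held the highest sum of granulocyte-monocyte progenitor markers, 28391 FPKM, and an erythroid sum of 89.8 FPKM near the low end of its group. Within the HSC-labelled libraries it also had the lowest sum of stem cell markers, 17.9 FPKM, and the highest sums of B cell markers, 51.3 FPKM, and dendritic markers, 30.8 FPKM. Its megakaryocyte sum was 76.3 FPKM. Their part in its higher mitosis genes was not tested. The library was singled out for its high values in these same 40 genes. Leaving it out therefore raises most of their fold changes by construction, and the counts that follow are a description. Without HSC-labelled replicate 1, 16 of the 40 genes were called higher in LSC-labelled libraries, including all 7 from the fit on 10 libraries, and 0 were called lower (all tested genes: 27.0% higher and 12.3% lower). At an unadjusted p under 0.05 the counts were also 16 and 0. The additional calls were Cdc25c, Aurkb, Birc5, Ttk, Ube2c, Espl1, Hmmr, Kif20a and Kif4, and the median log2 fold change of the 40 was 0.16. Cdc20 then had a log2 fold change of 0.51 (adjusted p = 0.00106) and Plk1 one of 0.36 (adjusted p = 0.00242). Between LSC-labelled and the remaining 4 HSC-labelled libraries 12 of 40 genes did not overlap, all higher, against 22.3% of all tested genes that were higher and 10.2% that were lower.

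Leaving out any other library gave 0 to 5 genes called higher. Without HSC-labelled replicates 2, 3, 4 and 5 there were 5, 1, 0 and 2 genes called higher, against 29.4%, 24.3%, 23.1% and 26.8% of all tested genes. Kif23 was called lower without replicate 3 (log2 fold change -0.32, adjusted p = 0.0472), against 14.3% of all tested genes. Without LSC-labelled replicates 1 to 5 there were 4, 0, 2, 1 and 1 genes called higher and 0 lower, against 25.8%, 23.5%, 23.7%, 24.5% and 23.1% of all tested genes called higher. In the 2 cases with 0 genes called higher, 7 genes each had an unadjusted p under 0.05 and a positive value. None of the 7 calls held in all 19 alternative fits, and Mad2l1 held in the most, 9.

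**Figure D4:**
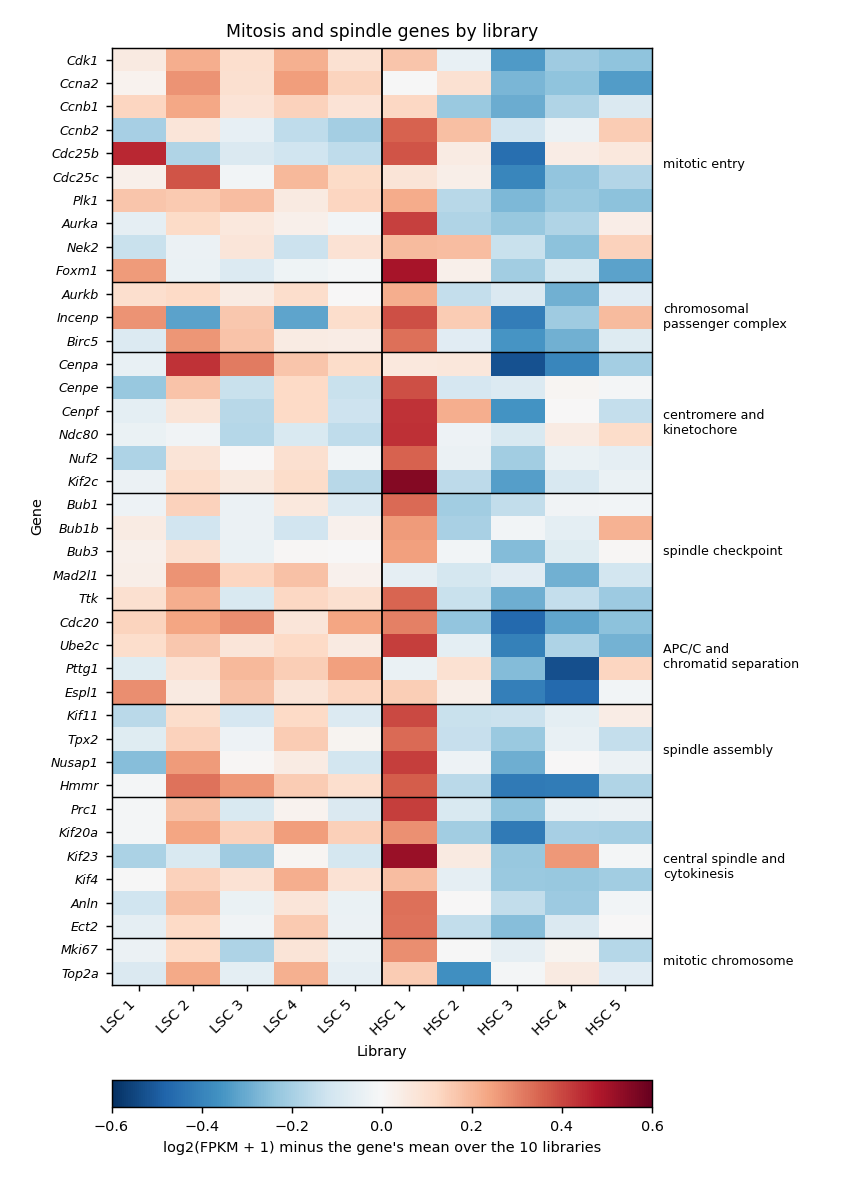
Heat map of the 40 genes (rows, by role) in the 10 libraries (columns, LSC-labelled left), as log2(FPKM + 1) minus the gene's mean over the 10 libraries. The column of HSC-labelled replicate 1 is red in nearly all rows, that of replicate 3 is blue, and Ccnb2, Ndc80 and Kif23 are bluer in LSC-labelled columns than their neighbours.

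Which genes were called differed with the scaling. The deposited FPKM put the median of all tested genes at 0.11 in LSC-labelled over HSC-labelled libraries, and median-of-ratios scaling moved it to -0.01. Under median-of-ratios scaling 0 of the 40 genes were called higher and 3 lower, against 20.7% of all tested genes higher and 20.0% lower. At an unadjusted p under 0.05 limma then gave 2 genes higher and 5 lower. The 7 genes called on deposited FPKM stayed positive there, at 0.12 to 0.25, with adjusted p of 0.0959 to 0.248. The 3 genes called lower were Ccnb2 (log2 fold change -0.35, adjusted p = 0.00526), Ndc80 (-0.32, adjusted p = 0.0141) and Kif23 (-0.37, adjusted p = 0.0306). Quantile normalization and removal of GC and length trends called these 3 lower as well, with 21.1% and 21.0% of all genes called lower there. Removal of GC and length trends also called Nek2 lower (-0.21, adjusted p = 0.0484) and Mad2l1 higher (0.18, adjusted p = 0.0452). In that fit 3041 of 13418 genes were called higher. Ndc80 was not among the genes set to be shown with all values and was named after its values were seen. It had 16.1, 16.3, 14.6, 15.5 and 14.8 FPKM in the LSC-labelled libraries, against 22.8, 16.2, 15.5, 17.2 and 18.0 FPKM in the HSC-labelled libraries. The groups overlapped, with HSC-labelled replicate 1 highest. Over 303 bases Ndc80 is 95.05% identical to another annotated gene, 2700099C18Rik, which reached up to 10.4 FPKM. Sharing of reads between them was not tested.

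In an alternative limma fit, chosen after seeing the data, every library was scaled to the same mean over the 40 genes. Values on both sides of 0 follow from this scaling and are not a result. In this fit Cdc20 was called higher in LSC-labelled libraries (log2 fold change 0.29, adjusted p = 0.0282). Ccnb2 (-0.32, adjusted p = 0.0146), Ndc80 (-0.29, adjusted p = 0.0161) and Kif23 (-0.33, adjusted p = 0.0179) were called lower. Of all tested genes, 19.0% were called higher and 15.2% lower on this scale. Since the scale is set by the 40 genes, a value on it is a difference from their mean and not from the transcriptome.

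**Figure D5:**
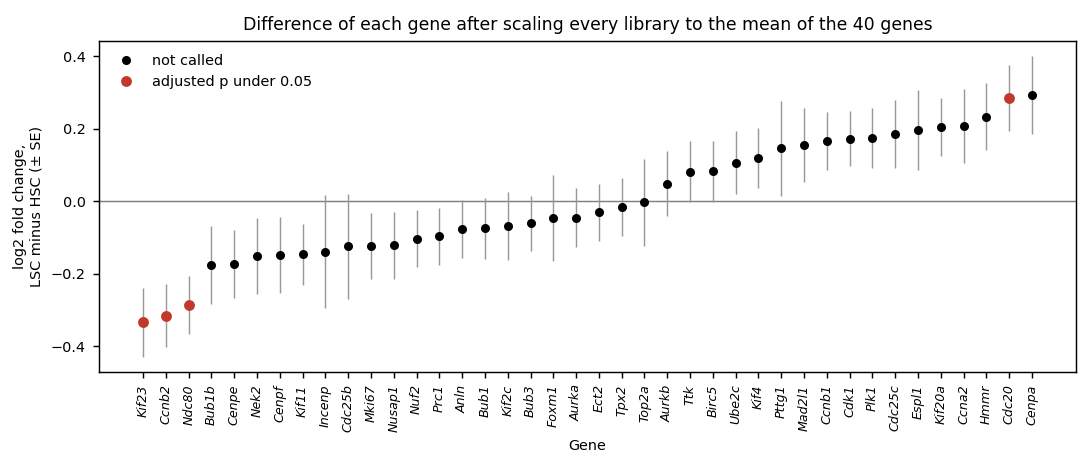
Log2 fold change of each gene, LSC-labelled minus HSC-labelled, with SE as bars, after every library was scaled to the mean of the 40 genes and with genes in rank order. Cdc20 at 0.29 is the gene called higher, and Kif23, Ccnb2 and Ndc80 at -0.33 to -0.29 are the genes called lower (red).

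A wider list of 139 mitosis genes outside the 40 gave the surroundings. Of these, 138 were tested (Tex14 fell below the filter), 29 were called higher in LSC-labelled libraries and 7 lower, against 27.2% and 13.8% of all tested genes, and their median log2 fold change was 0.15. HSC-labelled replicate 1 was the highest HSC-labelled library in 86 of the 138 genes (62.3%), against 24.2% of all tested genes. Without that library 39 genes were called higher and 3 lower, against 27.0% and 12.3% of all tested genes. Kinetochore and centromere genes gave 11 higher and 1 lower of 29, led by Zwint, an outer kinetochore protein, at 64.3 ± 5.93 FPKM in LSC-labelled and 43.0 ± 6.24 FPKM in HSC-labelled libraries (log2 fold change 0.58, adjusted p = 0.00178). Subunits and regulators of the APC/C gave 7 higher and 0 lower of 17, led by the subunit Cdc16 at 50.2 ± 3.68 FPKM in LSC-labelled and 35.5 ± 3.04 FPKM in HSC-labelled libraries (0.49, adjusted p = 0.000818). Genes that control mitotic entry gave 3 higher of 16, led by the mitotic kinase Pbk at 64.7 ± 2.48 FPKM in LSC-labelled and 44.5 ± 5.45 FPKM in HSC-labelled libraries (0.54, adjusted p = 0.000631).

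Genes of chromosome structure and centrioles were called in both directions. Of 40 condensin, cohesin and centrosome genes in the wider list, 5 were called higher (12.5%) and 4 lower (10%), and 31 were not called. Of all tested genes, 27.2% were called higher and 13.8% lower. Centrosome and centriole genes gave 3 higher and 2 lower of 19, led by Sass6, which builds the cartwheel of new centrioles, at 5.94 ± 0.889 FPKM in LSC-labelled and 9.26 ± 0.770 FPKM in HSC-labelled libraries (-0.57, adjusted p = 0.00128). Cohesin and its protectors gave 1 higher and 1 lower of 13, led by the cohesin loader Nipbl (-0.37, adjusted p = 0.0130), and condensin 1 higher and 1 lower of 8, led by its subunit Ncapd2 (0.24, adjusted p = 0.0203). Cytokinesis gave 1 higher and 2 lower of 8, led by the GTPase Rhoa (-0.25, adjusted p = 0.0246). The checkpoint gave 1 higher of 7, Trip13, which remodels Mad2 (0.30, adjusted p = 0.0296), and spindle motors and microtubule-binding proteins 1 higher of 20, Clasp1 (0.25, adjusted p = 0.0469). The passenger complex gene Cdca8 was not called. Under median-of-ratios scaling the wider list gave 16 higher and 20 lower, against 20.7% and 20.0% of all tested genes.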

How the data were processed

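Total RNA of 10 sorted bone marrow samples was amplified by the Geo-seq method and made into libraries with a transposase kit, per the labels' protocols. The authors deposited the FPKM values in a single table. The submitters' processing notes name mm10 as build, and as tools DESeq2, HTSeq, Cufflinks 2.1.1 and Bowtie 0.12.9, without their roles. The sources used here give neither annotation nor strandedness, so overlapping genes on opposite strands may share reads, as 11 of the 40 genes could. Amplification from small samples can make low genes noisier.

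Groups followed the labels. IDs were matched to GENCODE M21 (51246 of 51456). The 13431 genes that reached 1 FPKM in 5 or more libraries entered a fit on log2(FPKM + 1) by limma 3.58.1 in R 4.3.3 (two-sided, variances moderated along a mean trend, Benjamini-Hochberg over all genes tested, threshold 0.05). On this scale a fold change understates the change of low genes. Errors are SDs of FPKM over n = 5 libraries or moderated SEs. The fit was tested on simulated data with noise drawn separately for each gene. An offset shared by many genes within a library was not simulated.

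Whole reads could not be recovered: 73.6% to 96.6% of values of up to 4 steps, but only 2.15% to 19.2% of values of 5 to 8 steps, were whole within 0.05, so no count test was run and depth is unknown. Near-identical copies were sought with BLAST 2.17.0 (at least 95% identity over 300 bases), and promoter sequences came from RefSeq (GRCm38.p6). Python 3.11.15, numpy 2.4.6, pandas 2.3.3 and matplotlib 3.10.9 were used for tables and plots.

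The 40 genes and the lists were chosen with earlier results of these data known. Values in every library are given for each called gene and for the 2 most abundant genes of each role. Of the wider list, the gene with the smallest p in each class is named if called. The alternatives were another pseudocount, no filter or a stricter one, 3 other normalizations, a replicate block with and without GC correction, and leaving out each library, plus scaling to the 40 genes, added later.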

Additional observations from a re-analysis of the deposited data

Results flagged for a closer look

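Within a group of 5 libraries, a value was picked out where its gap to the nearest other value took more than 0.71 of the group's whole range, Dixon's 95% critical value. Chance picks out about 1 in 20 groups. Among the 40 genes this happened in 2 LSC-labelled and 11 HSC-labelled groups, against 4.88% of all tested genes in LSC-labelled and 7.18% in HSC-labelled libraries.

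In LSC-labelled libraries replicate 1 was far above the others in Cdc25b, at 13.6 FPKM with the next library at 9.07 FPKM, and in Foxm1, at 7.30 FPKM with the next at 5.89 FPKM. In HSC-labelled libraries replicate 1 was far above the others in 10 genes. For regulators of entry, checkpoint and exit it had 87.3 FPKM of Plk1 (next 66.5 FPKM), 21.4 FPKM of Ttk (next 15.0 FPKM) and 177 FPKM of Cdc20 (next 121 FPKM). For kinetochore genes it had 15.1 FPKM of Cenpe (next 11.4 FPKM), 24.7 FPKM of Nuf2 (next 18.6 FPKM) and 41.9 FPKM of Kif2c (next 27.4 FPKM). For spindle and midzone genes it had 49.6 FPKM of Tpx2 (next 37.7 FPKM), 29.9 FPKM of Hmmr (next 20.4 FPKM), 38.0 FPKM of Prc1 (next 27.6 FPKM) and 31.2 FPKM of Kif20a (next 22.2 FPKM). HSC-labelled replicate 4 was far below the others in Mad2l1, at 13.6 FPKM with the next at 15.5 FPKM. These 10 genes share 1 library, so the flags are not independent of each other.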

How the results depend on the processing

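The count of the 40 genes called higher in LSC-labelled libraries was 7, and was also 7 with a pseudocount of 0.1 or a filter of a mean of at least 5 FPKM. It was 0 with no filter, after quantile normalization, after median-of-ratios scaling and with a replicate block plus a correction for GC and length. It was 1 with that correction alone, 1 with the replicate block alone and 1 when scaled to the 40 genes. The count called lower was 0, but 3 after each of the scalings by quantiles, by median of ratios and by the 40 genes, and 4 with the GC and length correction, with or without the block. Leaving out 1 library gave 0 to 16 higher and 0 to 1 lower. For the wider list, 29 higher and 7 lower became 14 and 2 with no filter, 18 and 17 by quantiles, 16 and 20 by median of ratios, 20 and 21 with GC and length corrected, 12 and 14 with the block plus that correction, and 16 and 11 when scaled to the 40 genes. Leaving out 1 library gave 19 to 39 higher and 2 to 7 lower. The lowest count of higher genes, 19, came when LSC-labelled replicate 2 or HSC-labelled replicate 3 or 4 was left out. Counts of 2 to 4 lower genes came when replicate 1, 3 or 5 of the LSC-labelled or replicate 1 or 4 of the HSC-labelled libraries was left out. All genes called numbered 5513, and 3657 of the fewer genes left by the stricter filter. On deposited FPKM 3654 of all genes were higher and 1859 lower. These counts became 3309 and 1821 with no filter, 2786 and 2833 by quantiles, and 2777 and 2690 by median of ratios. They were 3041 and 2814 with GC and length corrected, and 2821 and 2545 with the block plus that correction. The block alone gave 3405 and 1750, and scaling to the 40 genes 2548 and 2036. With 1 library left out they ran from 3097 to 3944 higher and from 1558 to 1928 lower. Higher calls made up 66.3% of all calls on deposited FPKM and 50.8% under median-of-ratios scaling. The median of the 40 genes ran from -0.08 to 0.16, and 19 genes, none of them called on deposited FPKM, changed sign in at least 1 alternative. Same-numbered libraries of the groups correlated at -0.290 to 0.225, and 2 of 5 LSC-labelled libraries had their own number as best partner. With 5 libraries per group these correlations cannot decide whether same-numbered libraries were paired. The causes were not tested. Depth is unknown, so no counting error could be given.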
